A study of Mus musculus with 32 samples.

Results

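The C-type lectin receptor genes Clec4e, Clec4d, Clec4n, Clec7a and Clec5a were followed through pristane-induced inflammation of the mouse mesentery. They were chosen by name, with earlier results of these data known. Each was represented by the brightest of its probe sets that carries a single gene symbol. All 5 were among the 13016 genes tested, and they have 7 probe sets in all. Messenger RNA was measured on 32 Affymetrix mouse genome arrays. Treated mice had received 0.5 ml of pristane (TMPD, a hydrocarbon oil) in the peritoneal cavity, and same-strain control mice were untreated. BALB/c, DBA and BALB/DBA F1 hybrid mice were examined 3 days later, with 3 treated and 3 control arrays per strain. BALB/c mice were also examined at day 18, with 4 treated and 4 control arrays, and DBA mice at day 18, with 3 and 3. Ages are not given in the sources used here, and no engineered allele is named for any group. The array titles carry codes that fall into 3 runs, 1 for all day 3 arrays, 1 for BALB/c at day 18 and 1 for DBA at day 18, and each treated group was compared with the controls of its own run. In the day 3 run and the BALB/c day 18 run, all treated codes come before the control codes. Code order and treatment therefore cannot be told apart within those runs. The labels do not say whether arrays came from separate animals, so each p-value rests on array-to-array spread alone, and that spread could be technical.

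The products of these genes are receptors of monocytes, macrophages, neutrophils and dendritic cells that bind glycans, glycolipids or material from dead cells and microbes. Mincle (Clec4e), MCL (Clec4d) and Dectin-2 (Clec4n) signal through the adaptor Fc receptor gamma chain (Fcer1g), MDL-1 (Clec5a) through DAP12 (Tyrobp), and Dectin-1 (Clec7a) through a tyrosine motif in its own tail. The signals meet at the kinase Syk and lead through Bcl10 and Malt1 to NF-kappaB and to cytokines such as TNF, IL-6 and IL-1 beta.

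All 5 genes lie on chromosome 6. In the RefSeq order of protein-coding genes, Clec4n, Clec4d and Clec4e are immediate neighbours, whereas Clec7a stands between Clec1a and Olr1, and Clec5a stands apart between Olfr460 and Tas2r138. Promoter sequence of RefSeq assembly GRCm38.p6 was matched for 4 members and is shown because these genes rose together. Each line gives the 250 bases before the gene's start, 5′ to 3′ on the gene's strand, and capitals mark matches, on either strand, to GAGGAA, the core bound by the myeloid factor PU.1, and to TTNNGCAA, a C/EBP motif. The regions are chr6:123289872-123290121 on the minus strand for Clec4e, chr6:123261857-123262106 on the plus strand for Clec4d, chr6:129472786-129473035 on the minus strand for Clec7a and chr6:40585806-40586055 on the minus strand for Clec5a.
Clec4e: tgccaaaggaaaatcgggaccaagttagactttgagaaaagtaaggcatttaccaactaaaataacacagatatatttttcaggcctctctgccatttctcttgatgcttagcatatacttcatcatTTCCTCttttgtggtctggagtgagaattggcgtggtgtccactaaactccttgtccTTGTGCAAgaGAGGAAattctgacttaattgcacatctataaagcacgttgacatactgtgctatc
Clec4d: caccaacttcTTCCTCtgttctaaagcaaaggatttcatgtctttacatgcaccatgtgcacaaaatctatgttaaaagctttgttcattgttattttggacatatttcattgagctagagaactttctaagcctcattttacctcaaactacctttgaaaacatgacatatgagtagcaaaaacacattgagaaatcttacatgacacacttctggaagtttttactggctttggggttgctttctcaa
Clec7a: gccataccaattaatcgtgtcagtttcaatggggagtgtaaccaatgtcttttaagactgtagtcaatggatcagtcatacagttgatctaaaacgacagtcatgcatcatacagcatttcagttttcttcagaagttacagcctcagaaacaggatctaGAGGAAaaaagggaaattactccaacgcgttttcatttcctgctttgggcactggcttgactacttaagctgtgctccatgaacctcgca
Clec5a: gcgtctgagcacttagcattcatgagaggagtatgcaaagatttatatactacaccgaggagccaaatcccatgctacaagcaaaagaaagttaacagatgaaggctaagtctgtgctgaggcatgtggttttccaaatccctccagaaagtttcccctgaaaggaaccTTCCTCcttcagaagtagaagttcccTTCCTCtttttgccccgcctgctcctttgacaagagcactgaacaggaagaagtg
All 4 windows hold GAGGAA or its complement, which 23.3% of 32851 promoter windows of this length hold. TTNNGCAA was found in the Clec4e window, as TTGTGCAA starting 66 bases before the gene's start, and in 9.56% of all windows. An NF-kappaB motif and an interferon-stimulated response element, each of 10 letters and held by 1.41% and 2.98% of windows, were searched on both strands and had no match in these 4. The motifs do not overlap one another in the 4 windows. A match is a match of letters only.

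All 5 receptors rose in all 5 responses, that is, in BALB/c, DBA and F1 mice at day 3 and in BALB/c and DBA mice at day 18. The increase ranged from 1.61 ± 0.23 (log2 change ± SE) for Clec5a in BALB/c mice at day 3 to 6.08 ± 0.27 for Clec4e in BALB/c mice at day 18. In every response each treated array lay above each control array for every member. Here "rose" means an adjusted p under 0.05 from limma with Benjamini-Hochberg adjustment over all genes. Such increases were common on these arrays. They were found in 18.3% of genes in BALB/c at day 3, 16.4% in DBA at day 3, 18.6% in F1 at day 3, 21.7% in BALB/c at day 18 and 22.4% in DBA at day 18. Complete separation upward was found in 26.7%, 27.3%, 25.5%, 17.9% and 28.6% of genes, in the same order. The median change of the 5 members was 3.22, 3.36, 3.01, 3.94 and 4.42 on the log2 scale, and that of all genes lay between -0.04 and 0. Because the members were chosen with earlier results of these data known, the values over all genes are a description and no test of the set.

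**Figure D1:**
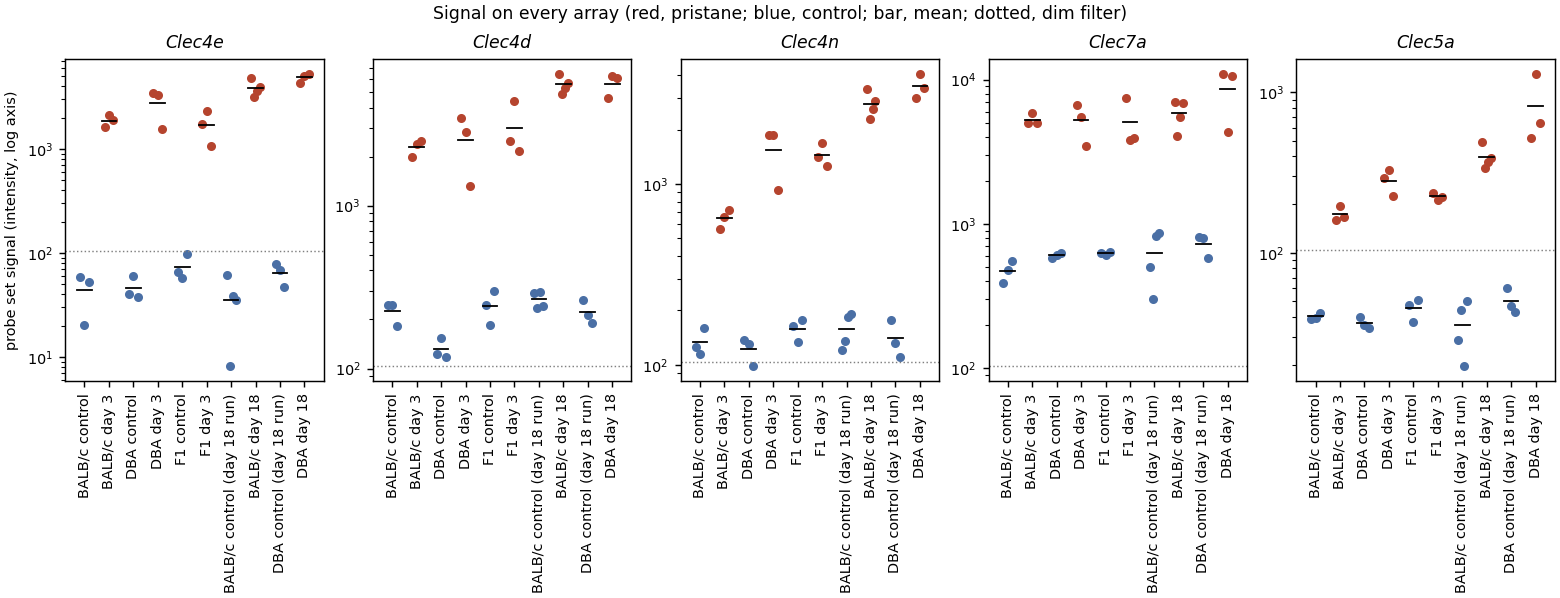
Deposited signal (intensity, log axis) of each member on every array, by strain, treatment and day; red points are pristane-treated arrays, blue points controls, bars group means and the dotted line the dim filter of 103.7. For Clec4e the treated arrays sit between 1057 and 5280 and the control arrays between 8.2 and 97.9.

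Several features of the tissue moved with treatment, and their part in the members' increases was not tested. In whole mesentery, more cells of a type and more RNA per cell cannot be told apart. The summed signal of 13 monocyte and macrophage markers was 64588 to 123002 on treated arrays and 26397 to 38631 on control arrays. Of these markers 11, 13, 12, 13 and 13 rose in BALB/c, DBA and F1 at day 3 and BALB/c and DBA at day 18. The summed signal of 14 neutrophil markers was 13777 to 149330 on treated and 1380 to 11498 on control arrays, and 10, 6, 9, 13 and 14 of them rose. All 4 pan-leukocyte markers rose in each response, with medians of 1.88 to 2.24 on the log2 scale. The member changes lay above that median in every response except for Clec5a in BALB/c and F1 mice at day 3. Neutrophil marker medians were 2.63, 1.82, 2.03, 3.30 and 3.12. Below them lay Clec4n and Clec5a in BALB/c and Clec5a in F1 at day 3, and Clec7a and Clec5a in BALB/c at day 18. Monocyte and macrophage medians were 2.15, 2.01, 2.08, 2.31 and 2.44. Below these lay Clec4n and Clec5a in BALB/c and Clec5a in F1 at day 3. The 3′ to 5′ ratio of Actb, a sign of RNA integrity, was lower on treated arrays (1.12 to 2.21) than on control arrays of the same strain and run, except that in BALB/c mice at day 3 the ranges of 1.63 to 2.21 and 2.1 to 2.6 overlapped. BALB/c control replicate 2 of the day 18 run stood apart, with a highest correlation of 0.891 with any other array against at least 0.975 elsewhere, and its summed pancreatic acinar signal was 711356. The members' log2 changes in that response, with this and each other array left out in turn, ran from 2.68 for Clec5a to 6.27 for Clec4e.

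Clec4e encodes Mincle, a receptor for mycobacterial cord factor and for a nuclear protein released by dying cells. Its signal on BALB/c day 3 arrays was 1639, 2094 and 1886, against 58.5, 20.1 and 52.8 on their controls. DBA day 3 arrays gave 3477, 3287 and 1542 against 40.4, 59.8 and 37.5, and F1 day 3 arrays 1746, 2333 and 1057 against 66, 57.3 and 97.9. The groups are separated by more than a factor of 10 in each strain, and no control array reached the dim filter. At day 18 the BALB/c arrays gave 4824, 3148, 3602 and 3954 against 60.8, 8.2, 38.2 and 35.1. The DBA day 18 arrays gave 4316, 5024 and 5280 against 78.9, 68.8 and 46.8. Clec4e rose by 4.83 ± 0.32 in BALB/c (adjusted p = 3.2e-11), 5.23 ± 0.32 in DBA (8.9e-12) and 4.09 ± 0.32 in F1 mice (1.7e-10) at day 3, and by 6.08 ± 0.27 in BALB/c (1.6e-14) and 5.78 ± 0.32 in DBA mice (3.9e-13) at day 18.

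The size of the Clec4e change depends on the value added before the logarithm, because the controls are dim. In BALB/c mice at day 18 it was 7 with an offset of 1 and 4.84 with an offset at the median of all values. A second probe set of Clec4e gave smaller increases, 2.78, 2.81, 2.65, 3.91 and 3.88 in the order above, each with an adjusted p of at most 3.2e-06. Mean levels fell in the order DBA day 18 (4873), BALB/c day 18 (3882), DBA day 3 (2769), BALB/c day 3 (1873) and F1 day 3 (1712). Each of these neighbouring levels overlapped the next, and the control levels, with means of 35.6 to 73.7, overlapped their neighbours as well.

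Clec4d encodes MCL, a partner of Mincle that pairs with it at the cell surface. BALB/c day 3 arrays gave signals of 1990, 2377 and 2502 against 245, 246 and 183 on their controls. DBA day 3 arrays gave 3458, 2835 and 1319 against 122, 154 and 117, and F1 day 3 arrays 2479, 4382 and 2152 against 245, 186 and 298. Unlike Clec4e, Clec4d was above the dim filter on all 16 control arrays. At day 18 the BALB/c arrays gave 6458, 4871, 5263 and 5666 against 289, 234, 297 and 242, and the DBA arrays 4580, 6211 and 6041 against 262, 214 and 190. The increases were 3.22 ± 0.26, 3.94 ± 0.26 and 3.45 ± 0.26 in BALB/c, DBA and F1 mice at day 3, and 4.27 ± 0.22 and 4.51 ± 0.26 in BALB/c and DBA mice at day 18, with adjusted p values of at most 4.7e-10. Both day 18 groups lay above every day 3 array, and the 3 day 3 groups overlapped one another. Among the controls, DBA arrays of the day 3 run (117 to 154) lay below all other control arrays. For this order and that of the days, the share over all genes was not computed.

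Clec4n encodes Dectin-2, a receptor for mannose-rich fungal and bacterial glycans. On BALB/c day 3 arrays its signal was 567, 656 and 716, against 125, 115 and 159 on their controls. DBA day 3 arrays gave 1860, 1857 and 924 against 137, 131 and 98.6, and F1 day 3 arrays 1411, 1679 and 1264 against 164, 134 and 176. All 3 BALB/c arrays lay below every DBA and F1 array of the same day, while the controls of the 3 strains overlapped. At day 18 the BALB/c arrays had reached 3356, 2283, 2587 and 2879 against 121, 136, 184 and 191, and the DBA arrays 3008, 4076 and 3414 against 178, 132 and 111. The day 18 groups overlapped each other and lay above every day 3 array. For neither this order nor that of the strains at day 3 was the share over all genes computed. The strain differences between the day 3 responses of Clec4n were not called. The increases were 2.09 ± 0.22 in BALB/c, 3.36 ± 0.22 in DBA and 3.01 ± 0.22 in F1 mice at day 3, and 3.94 ± 0.19 in BALB/c and 4.42 ± 0.22 in DBA mice at day 18, with adjusted p values of at most 3.8e-08. The probe sets used for Clec4n and Clec4d are of a type whose probes may match more than 1 transcript.

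Clec7a encodes Dectin-1, the receptor for fungal beta-glucan. BALB/c day 3 arrays gave 4984, 5871 and 5018 against 390, 476 and 556 on their controls. DBA day 3 arrays gave 6683, 5543 and 3441 against 585, 612 and 627, and F1 day 3 arrays 7424, 3797 and 3947 against 628, 608 and 638. The gene was above the dim filter on all 16 control arrays, and its day 3 levels overlapped in the 3 strains. At day 18 the BALB/c arrays gave 6964, 4046, 5519 and 6839 against 505, 302, 828 and 865, and the DBA arrays 10995, 4356 and 10571 against 818, 800 and 577. The increases were 3.42 ± 0.34, 3.00 ± 0.34 and 2.90 ± 0.34 in BALB/c, DBA and F1 mice at day 3, and 3.25 ± 0.29 and 3.42 ± 0.34 in BALB/c and DBA mice at day 18, with adjusted p values of at most 2.3e-07. All treated levels of Clec7a, from the F1 day 3 mean of 5056 to the DBA day 18 mean of 8640, overlapped the next in the order, at day 3 and day 18 alike.

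Clec5a encodes MDL-1, a receptor of monocytes, macrophages and neutrophils. BALB/c day 3 arrays gave 160, 195 and 166 against 38.6, 39.3 and 42.4 on their controls. DBA day 3 arrays gave 292, 326 and 224 against 39.6, 35.6 and 33.8, and F1 day 3 arrays 236, 214 and 223 against 47, 37.1 and 50.7. No control array reached the dim filter, so the gene was tested because of its treated arrays, as was Clec4e. At day 18 the BALB/c arrays gave 491, 337, 370 and 388 against 28.5, 44.1, 19.7 and 49.8, and the DBA arrays 518, 1304 and 647 against 59.9, 46.6 and 42.6. The treated levels were ordered DBA day 18, BALB/c day 18, DBA day 3, F1 day 3 and BALB/c day 3, and of these neighbours only DBA and F1 at day 3 overlapped. How many of all genes separate in this way was not computed. The increases were 1.61 ± 0.23, 2.31 ± 0.23 and 1.84 ± 0.23 in BALB/c, DBA and F1 mice at day 3, and 2.82 ± 0.20 and 3.40 ± 0.23 in BALB/c and DBA mice at day 18, with adjusted p values of at most 4.8e-06. With an offset at the median of all values the BALB/c day 3 increase was 0.95, and with an offset of 1 it was 2.08.

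Single arrays stood out within treated groups. DBA day 3 replicate 3 had the lowest signal of its group for all 5 members, and its leukocyte marker sum (15418) and monocyte and macrophage marker sum (64588) were also the lowest of the group. DBA day 18 replicate 2 had the highest Clec5a (1304), Clec4d (6211) and Clec4n (4076) signals and the lowest Clec7a signal (4356) of its group. On the same array the neutrophil marker sum was 149330, against 26364 and 45060 on the other two, and the eosinophil and mast cell marker sum was 22318, against 2911 and 8918. The part of these markers in the members' values was not tested.

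**Figure D2:**
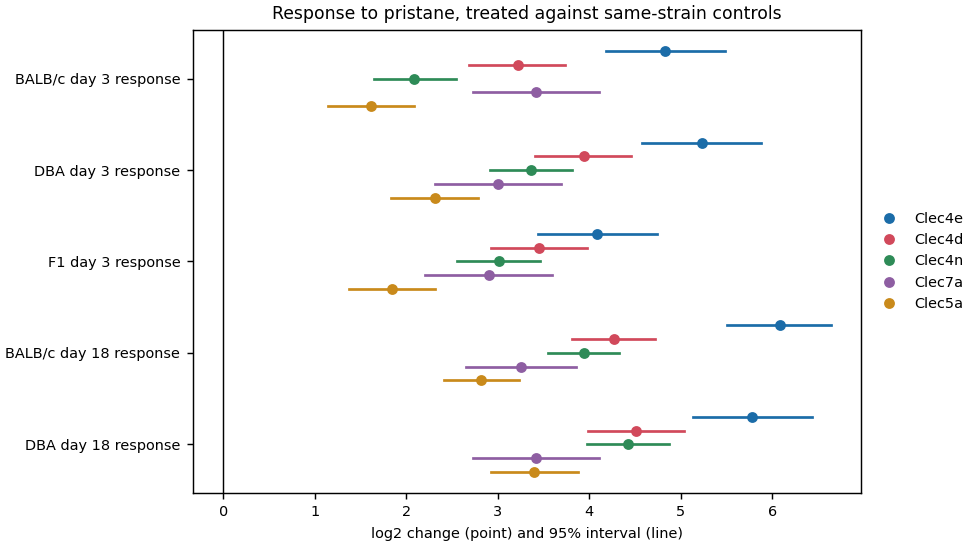
Log2 change of each member in the 5 responses to pristane, treated against same-strain controls of the same run; points are estimates and lines 95% intervals. The estimates run from 1.61 for Clec5a at BALB/c day 3 to 6.08 for Clec4e at BALB/c day 18, and the order of members is not fixed: with an offset of 1 Clec5a is above Clec7a at day 18 (3.52 against 3.31 in BALB/c, 3.92 against 3.46 in DBA), and the second Clec4e probe set (2.78) is below Clec7a (3.42) at BALB/c day 3.

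The time comparison asked whether the responses at day 18 and day 3 differed in size. Clec4n had a larger increase at day 18 in both strains, by 1.85 ± 0.29 in BALB/c mice (adjusted p = 0.0014, 95% interval 1.26 to 2.44) and by 1.07 ± 0.31 in DBA mice (adjusted p = 0.047, 0.43 to 1.70). It was the only member called in either, where 0.361% and 4.18% of all genes were called. The remaining members had differences of 1.24 (Clec4e, adjusted p = 0.19), 1.21 (Clec5a, 0.083), 1.05 (Clec4d, 0.18) and -0.17 (Clec7a, 0.92) in BALB/c mice. In DBA mice they were 1.10 (Clec5a, 0.053), 0.57 (Clec4d, 0.44), 0.55 (Clec4e, 0.57) and 0.42 (Clec7a, 0.71). The 95% interval for Clec7a ran from -1.08 to 0.74 in BALB/c and from -0.56 to 1.40 in DBA mice. Day and code run cannot be told apart here, although each response was taken against controls of its own run. Xist, a transcript of female cells, was above 1000 on every BALB/c and DBA array of the day 3 run. At day 18 it was above 1000 on 2 of 4 arrays in each BALB/c group and 1 of 3 in each DBA group. By this transcript the mix of sexes therefore differed between the days. The Actb ratio in these strains was 1.63 to 2.87 in the day 3 run and 1.12 to 2.29 at day 18, and its part was not tested.

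The Clec4n time differences have limits. The second probe set of Clec4n gave smaller differences that were not called, 1.03 in BALB/c (adjusted p = 0.33) and 0.87 in DBA mice (0.31). In DBA mice the call was lost in 16 of 27 alternative settings, with adjusted p from 0.0002 to 0.31, among them leaving out DBA day 18 replicate 2 or 3, DBA day 3 replicate 3, or DBA control replicate 2, 3, 4 or 5. In BALB/c mice the adjusted p with 1 array left out ran from 0.0013 to 0.0097. Clec5a was called as well without DBA day 18 replicate 1 (1.36, adjusted p = 0.0093) and, in BALB/c mice, without BALB/c control replicate 2 (1.28, 0.044). The monocyte and macrophage marker list had a median difference of 0.32 in BALB/c and 0.17 in DBA mice between the same responses, with 0 and 5 of 13 markers called higher, and the neutrophil list 0.27 and 1.34, with 0 of 14 called in either.

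The strain comparison at day 3 asked whether BALB/c, DBA and F1 mice responded alike. By limma, 0 members were called between BALB/c and DBA, where 0.492% of all genes were, 0 between F1 and BALB/c (0.238% of genes) and 0 between F1 and DBA (2.01%). At an unadjusted p under 0.05 the counts were 2, 1 and 1 members, and 1285, 1139 and 1675 of the 13016 genes. An ordinary linear model called 0 members in each. The largest strain difference was that of Clec4n, whose increase in BALB/c mice was smaller than in DBA mice by a difference of -1.26 ± 0.31 (adjusted p = 0.055, 95% interval -1.90 to -0.63). It was called in 6 of 27 alternatives, with adjusted p from 0.0027 to 0.66, and without DBA day 3 replicate 3 it was -1.59 (0.0061). The second probe set gave -0.66 (0.66). Clec4n in F1 mice exceeded BALB/c by 0.92 (adjusted p = 0.24), and differed from DBA by -0.35 (0.74).

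Clec4e had its smallest increase in F1 mice, with a difference from DBA of -1.14 ± 0.45 (adjusted p = 0.25, 95% interval -2.06 to -0.22) and from BALB/c of -0.74 ± 0.45 (0.72). Clec4d and Clec5a had smaller increases in BALB/c than in DBA mice by differences of -0.72 (adjusted p = 0.53) and -0.70 (0.48). Clec7a had a difference of the other sign, 0.42 (0.87, 95% interval -0.56 to 1.40). The F1 comparison has a further limit. Xist, expressed in female cells, was 12294 to 16808 on the 3 treated F1 arrays and 55 to 107 on the 3 F1 controls. Kdm5d, a Y chromosome gene, was 2 to 5 on the treated F1 arrays and 479 to 668 on the F1 controls. By these transcripts the treated F1 arrays were female and the F1 controls male. Sex and treatment therefore cannot be told apart in that response. With log2 Xist as a term the F1 increases were 4.22 for Clec4e, 3.46 for Clec4d, 3.22 for Clec4n, 3.28 for Clec7a and 1.88 for Clec5a. Xist varied little within each F1 group, so that term rests mainly on the day 18 groups, where Xist was mixed. These values therefore cannot separate sex from treatment in F1 mice. In place of the F1 controls, the parental controls of the day 3 run left all 5 called.

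At day 18, 0 members were called between the BALB/c and DBA responses by limma, where 1.01% of all genes were. At an unadjusted p under 0.05, 0 members and 2101 of the 13016 genes passed, and an ordinary linear model called 0 members. Differences ranged from -0.58 for Clec5a (adjusted p = 0.34, 95% interval -1.21 to 0.04) to 0.29 for Clec4e (0.74, -0.56 to 1.15). Strain and code run cannot be told apart at day 18. Among the untreated mice of the day 3 run, 0 members were called between DBA and BALB/c, where 7.68% of genes were. An ordinary linear model called 0 members. At an unadjusted p under 0.05, 1 member and 2463 of the 13016 genes passed. That member was Clec4d, with a difference of -0.68 ± 0.26 (DBA minus BALB/c, adjusted p = 0.12). Between F1 controls and the midpoint of the parental controls, 0 members were called by limma and 0.315% of genes were. At an unadjusted p under 0.05, 0 members and 1236 of the 13016 genes passed, and an ordinary linear model called 0 members. Xist was 55 to 107 on the F1 controls and 17079 to 26178 on these parental controls. Kdm5d was 479 to 668 on the F1 controls and 6 to 25 on these parental controls. Sex, as read from these transcripts, and F1 status therefore cannot be told apart in this comparison. With log2 Xist as a term, limma called 6 genes in place of 41. Here too the term rests mainly on the day 18 groups and cannot separate sex from F1 status. Intervals that span 0 do not show that the strains respond alike.

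**Figure D3:**
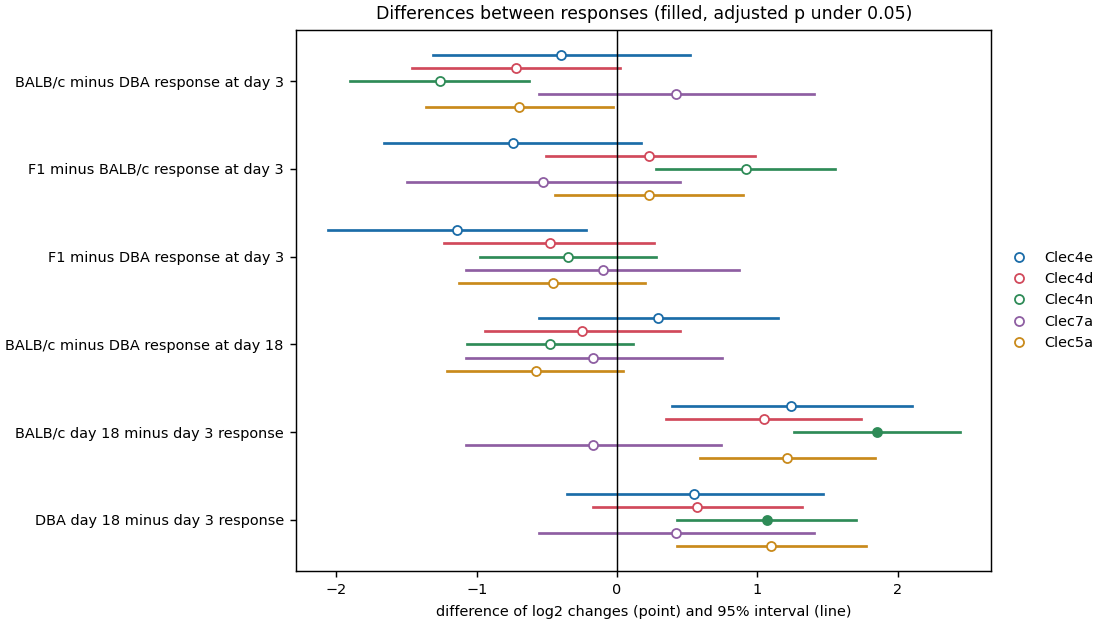
Differences between responses for each member, as differences of log2 changes with 95% intervals; filled points have an adjusted p under 0.05. The filled points are Clec4n, at 1.85 for BALB/c and 1.07 for DBA day 18 minus day 3.

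The adaptors and kinases that serve these receptors rose with them. Of 15 tested, 14 rose in each response, where 16.4% to 22.4% of all genes rose. The list medians were 1.44 to 2.01 on the log2 scale, against -0.04 to 0 over all genes. Fcer1g, the adaptor of Clec4e, Clec4d and Clec4n, rose by 2.27 to 3.03, and Tyrobp, the adaptor of Clec5a, by 2.20 to 2.68. The kinase Syk rose by 1.52 to 2.01, the Src-family kinase Fgr by 2.63 to 3.29 and the scaffold Lcp2 by 2.15 to 2.67. The exception was Pik3cd, which ranged from -0.95 to 0.67 and was not called in any. Of the 10 tested genes of the Bcl10, Malt1 and NF-kappaB list, 5, 8, 7, 7 and 8 rose in BALB/c, DBA and F1 at day 3 and BALB/c and DBA at day 18, with medians of 0.63 to 1.05. Relb (1.22 to 1.68) and Nfkb2 (0.93 to 1.56), subunits of NF-kappaB, rose in all 5, as did Bcl10 (0.61 to 1.01) and Malt1 (0.67 to 1.11). Rel rose by 1.19 to 1.48 in 4 responses and had a value of 0.58 (adjusted p = 0.11) in BALB/c mice at day 3. The inhibitor gene Nfkbia rose by 0.60 to 1.09 in 4 responses and had a value of 0.35 (adjusted p = 0.10) in F1 mice. Map3k7, the kinase TAK1, fell in F1 mice at day 3 by 0.43 and in DBA mice at day 18 by 0.36.

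Of 12 transcription factors of the receptor genes and the response, 9, 7, 7, 9 and 9 rose, where 16.4% to 22.4% of all genes rose. Spi1, which encodes PU.1, rose by 2.17 to 2.99, Irf8 by 1.56 to 2.35, Irf5 by 1.52 to 2.32 and Egr2 by 1.91 to 2.73. Cebpa, an adipocyte and myeloid factor, fell in 4 responses, by 1.04, 0.90, 0.86 and 1.52, and had a value of -0.42 (adjusted p = 0.26) in DBA mice at day 3. Within each strain and run the adipocyte marker sum was also lower on every treated array (24831 to 104494 over all runs) than on every control array (88557 to 210329), with 7, 1, 5, 9 and 8 of 9 markers fallen. Of all genes, 17.2%, 13.4%, 18%, 22.2% and 25% fell in the same order of responses. Of 14 genes listed as inhibitors and restraining receptors, 11, 11, 11, 13 and 13 rose and 1, Ptpn11, fell in each. Trem2, a lipid receptor that signals through Tyrobp, rose by 3.23 to 5.57, the inhibitory receptor gene Pirb by 1.96 to 3.35, Cd200r1 by 1.75 to 3.48, and Ptpn6, which encodes the phosphatase SHP-1, by 2.21 to 2.84. Ptpn11, which encodes the phosphatase SHP-2, had changes of -0.67 to -0.40. Its place on the list does not show that it restrains these receptors.

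Cytokine and chemokine genes of the response rose as well. Of 14 tested, 13, 13, 13, 14 and 13 rose, with medians of 2.56 to 3.41, where 16.4% to 22.4% of all genes rose. Cxcl2, a neutrophil chemoattractant, rose by 4.81 to 6.05, Il1rn by 4.44 to 5.74, Ccl3 by 4.10 to 5.65 and Il1b by 3.78 to 4.57. Of 14 other innate receptors, 12, 12, 13, 12 and 13 rose. Fpr2, a formyl peptide receptor, rose by 3.54 to 4.35, the scavenger receptor Msr1 by 3.27 to 4.09 and Cd14 by 2.37 to 3.30. Cd36, a fatty acid receptor also made by adipocytes, fell in 4 responses, with changes of -1.23 to -0.84, and had a value of -0.09 (adjusted p = 0.79) in DBA mice at day 3. Marco, a scavenger receptor of macrophages, rose in DBA mice by 4.15 at day 3 and 3.85 at day 18 and in F1 mice by 3.37, and had values of -0.10 and 0.38 in BALB/c mice that were not called. The difference between the BALB/c and DBA responses was itself called for Marco, -4.25 ± 0.84 at day 3 (adjusted p = 0.017) and -3.47 ± 0.78 at day 18 (0.031), whereas it was not called for any of the 5 lectins.

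Of 20 other C-type lectins tested, 9, 10, 10, 7 and 10 rose and 0, 0, 1, 1 and 1 fell, in the same order of responses. Over all genes 16.4% to 22.4% rose and 13.4% to 25% fell, by response. Olr1, the LOX-1 receptor for oxidised lipoprotein and the neighbour of Clec7a, rose by 3.95 to 4.97. Clec1a, on the other side of Clec7a, ranged from -0.56 to -0.10 and was not called in any. Clec4a3 rose by 1.78 to 2.72, and Clec4a2, near Clec4n, by 1.34 to 2.56. Klrk1, the NKG2D receptor of NK and T cells, rose in F1 mice at day 3 (2.61) and in BALB/c (1.95) and DBA mice (2.08) at day 18. Cd209a fell by 0.80 in F1 mice. Between the day 18 and day 3 responses, 3 of these 20 lectins were called in BALB/c mice, all lower, and in DBA mice 3 were called higher and 2 lower. Over all genes 0.361% were called in BALB/c and 4.18% in DBA mice. Higher in DBA mice were Klrk1 (2.24 ± 0.55, adjusted p = 0.019), Cd69 (1.61 ± 0.43, 0.031) and Clec2d (1.09 ± 0.31, 0.045). Cd209d was lower in BALB/c (-2.07 ± 0.36, 0.0048) and DBA mice (-1.39 ± 0.38, 0.037). Mgl2, a galactose-type lectin of macrophages, rose by 1.28 in BALB/c mice at day 3 and fell by 1.18 in BALB/c and 1.21 in DBA mice at day 18, and the day 18 response was lower than the day 3 response in BALB/c (-2.46 ± 0.34, adjusted p = 0.00029) and DBA mice (-1.34 ± 0.36, 0.033). Clec10a rose by 2.12 in BALB/c mice at day 3 and had a value of 0.28 at day 18 that was not called, a difference of -1.84 ± 0.33 (0.0079), and its difference in DBA mice was -0.56 ± 0.36 (0.44).

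**Figure D4:**
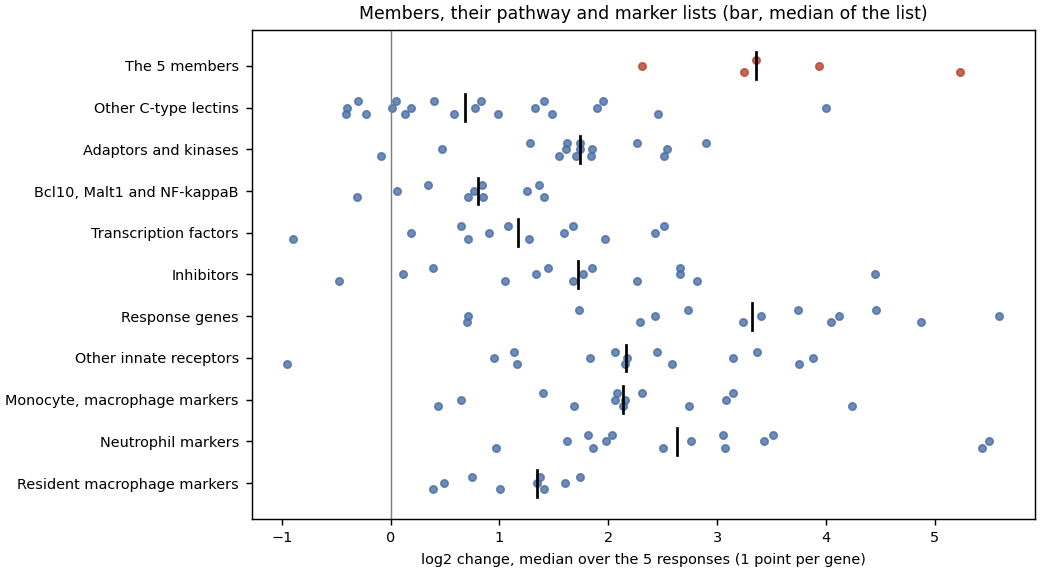
Log2 change, as the median over the 5 responses, of each member and of each tested gene in the pathway and marker lists; 1 point per gene, bars are list medians. The members span 2.31 to 5.23 with a median of 3.36, and the other C-type lectins -0.41 to 4 with a median of 0.68.

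Over the 10 level means, each gene centred on its own mean, the root mean square difference between members was smallest for Clec4d and Clec4n (0.42 on the log2 scale) and largest for Clec4e and Clec5a (1.42). This distance grows with the size of a gene's change, and the sizes for Clec4e and Clec5a, whose controls were below the dim filter, move with the offset and, for Clec4e, with the probe set. Predicted genes and clone names were left out when the nearest genes were ranked. The genes outside the set that lay nearest to Clec4e were Cxcl2 (0.33), Ccl3 (0.37) and Il1rn (0.42), and those nearest to Clec4d were Fpr2 (0.21), the coagulation factor gene F7 (0.33) and Timp1 (0.33). Nearest to Clec4n were Itgax (0.32), which encodes the integrin CD11c, Igsf6 (0.36) and Cd300c2 (0.41). Nearest to Clec7a were Plek (0.17), Cd14 (0.18) and Cyp7b1 (0.21), and nearest to Clec5a were Slc2a6 (0.22), Egr2 (0.25) and Tlr2 (0.25). Itgax, the nearest to Clec4n, rose by 2.16 in BALB/c, 2.99 in DBA and 2.24 in F1 mice at day 3 and by 3.37 and 3.65 in BALB/c and DBA mice at day 18. Plek, the nearest to Clec7a, rose by 2.73 to 3.57 over the 5 responses. These distances are descriptions over the same 32 arrays.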

How the data were processed

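Total RNA of mouse mesentery was amplified and labelled from 1 µg and hybridised to 1 array per sample, per the labels' protocols. The authors deposited linear probe set intensity values. GCOS and MAS5 are named, without versions, per the submitters' processing notes, and the deposited intensity has a 2% trimmed mean of 500 on every array. The authors' test was ANOVA in Partek, per the labels; the settings are not given in the sources used here.

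Of 45101 probe sets, 34958 carried 1 symbol in the platform annotation, 932 several and 9211 none. Those above 103.7 (the median of all values) on at least 3 arrays were kept, and the brightest stood for each of 13016 genes. Log2(intensity + 24.9) (offset at the lower quartile of the deposited values) was computed from the deposited intensity, which understates changes of dim genes. The 32 arrays entered 1 limma 3.58.1 model (R 4.3.3, intensity trend) with 10 levels of strain, treatment and code run, tested two-sided with Benjamini-Hochberg adjustment over all genes. The number of arrays, 3 or 4 per level, limits the precision. The fit was tested on simulated data. Groups came from the labels; replicate numbers only name arrays.

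The members and gene lists were chosen with earlier results of these data known. From each pathway list, up to 4 genes with the largest absolute median change over the responses were named, and each gene of a call count of 5 or fewer in a response; Syk, Pik3cd, Clec1a, Clec10a and the lectins called between days were named for their roles or after their values were seen. The 3 nearest genes of each member were named by distance, leaving out the members, predicted genes (Gm names), Rik clones and LOC names. Of 247 listed symbols, 205 were tested and the others are not analysed here. Alternatives changed the offset, dim filter, normalization, controls, fit, variance model, array weights, probe sets and Xist term, and left out each array in turn.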

Additional observations from a re-analysis of the deposited data

Results flagged for a closer look

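Clec4n had a larger increase at day 18 than at day 3 in BALB/c mice, by 1.85 on the log2 scale, and the difference between these responses was called (limma, adjusted p = 0.0014). In DBA mice the same difference was 1.07 (adjusted p = 0.047). All 4 BALB/c and all 3 DBA day 18 arrays lay above every day 3 array of their strain. The same held for Clec4e, Clec4d and Clec5a, whose time differences were not called. This compares treated levels of different code runs, and its share over all genes was not computed. The brightest probe set carries both calls, and the second Clec4n probe set gave 1.03 (adjusted p = 0.33) and 0.87 (0.31). No member had a single array far outside its group among the BALB/c day 18 arrays or among the BALB/c or DBA controls. For this the controls of a strain were pooled over code runs. Groups of 3 arrays, and the controls of the BALB/c day 18 run by themselves, were not examined in this way.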

How the results depend on the processing

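All 520 alternative values of the 25 member responses kept their direction and an adjusted p under 0.05, the highest being 0.00026. The differences between responses were less stable. For DBA day 18 minus day 3, with 1 member called, 0 were called with a floor, an offset of 1, no dim filter, median centring, a separate fit, an ordinary linear model, the mean over probe sets or probe sets singly, 2 with an offset at the median, quantile normalization or array weights, 4 with pooled controls, and 0 to 2 with 1 array left out. Without the intensity trend the count stayed at 1 but the member changed, with Clec4n lost (adjusted p = 0.052) and Clec5a called (0.044). For BALB/c day 18 minus day 3, with 1 called, 4 were called with pooled controls, 2 with array weights, 0 with probe sets singly, and 1 to 2 with 1 array left out (2 without BALB/c control replicate 2). For BALB/c minus DBA at day 3, with 0 called, 1 was called with an offset at the median, the stricter filter, pooled controls, array weights or the Xist term, and 0 to 1 with 1 array left out. Array weights gave 1 for F1 minus BALB/c and 1 for F1 minus DBA, parental controls gave 1 for F1 minus BALB/c, and a separate fit gave 1 for DBA minus BALB/c controls.

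Small differences that were not called changed sign, and the cause was not tested. Clec4e for BALB/c minus DBA at day 18 became -0.05 with an offset at the median and -0.01 with array weights. Clec7a for BALB/c day 18 minus day 3 became 0.01 with quantile normalization and 0.11 with pooled controls, and for F1 minus DBA 0.02 with pooled controls, 0.26 with the Xist term and 0.11 with parental controls; for F1 minus mid-parent controls it became -0.20 with the Xist term. Among the control differences, Clec5a became 0.13 with pooled controls, Clec4n 0.29 with the mean over probe sets and 0.67 with its second probe set, and Clec4e -0.25 with its second probe set for F1 minus mid-parent. With 1 array left out, the ranges were -0.60 to 0.06 for Clec7a between strains at day 18, -0.46 to 0.02 for Clec7a between days in BALB/c, -0.41 to 0.10 for Clec7a in F1 minus DBA, -0.07 to 0.44 for Clec4d in F1 minus BALB/c, and -0.20 to 0.25 for Clec4e and -0.18 to 0.02 for Clec4n in DBA minus BALB/c controls.

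Counts over all genes moved more. Responses: BALB/c day 18 called 5720 genes and 3418 in a separate fit, and DBA day 3 called 3874 and 5879 with array weights. Differences, main count and then range: BALB/c minus DBA day 3, 64 and 23 to 929; F1 minus BALB/c, 31 and 6 to 715; F1 minus DBA, 262 and 187 to 1643; BALB/c minus DBA day 18, 131 and 6 to 1290; BALB/c day 18 minus day 3, 47 and 19 to 1089; DBA day 18 minus day 3, 544 and 247 to 4165; DBA minus BALB/c controls, 999 and 635 to 2135; F1 minus mid-parent controls, 41 and 6 to 1302. Median centring moved the share of called genes that were higher from 77.4% to 91.3% (F1 minus BALB/c), 83.6% to 95.8% (F1 minus DBA), 44.3% to 55.6% (BALB/c minus DBA day 18), 63.8% to 80.6% (BALB/c day 18 minus day 3), 59% to 72.7% (DBA day 18 minus day 3) and 53.7% to 38.1% (F1 minus mid-parent controls). No paired analysis was possible because replicate numbers were given here in order of accession, which pairs no arrays.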
